A study of Mus musculus with 2 samples.

Results

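The collagen genes were followed in single cells of the mouse spinal cord. They were taken as every gene whose symbol in the gene list is Col, a number, a and a number, which gave 44 genes of 32285. Each library came from spinal cords of FVB mice at postnatal day 4. The library labelled SMA has the genotype mSmn-/-, hSMN22tg/0 and the library labelled Con has mSmn+/-, hSMN22tg/0, so the human transgene is carried by both and Con keeps 1 mouse allele. Per the study's methods, these were littermates of the severe Taiwanese model of spinal muscular atrophy and several animals were pooled in each library. There was 1 library per genotype, so no difference has a replicate check, no p-value is given, and genotype, litter pool and library cannot be told apart.

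The matrices held 85872075 unique molecular identifiers (UMIs, each the tag of 1 captured RNA molecule) in the SMA library and 97894084 in the Con library. They listed 8163 barcodes in common, and whether a shared barcode marks cells of 1 library that also appear in the other was not settled. SMA barcodes that Con also lists were left out, which left 6787 SMA cells and 8917 Con cells after the filters on genes and mitochondrial share. Smn1, the targeted gene, had 48.1 UMIs per 1000000 UMIs (CPM) in SMA and 43.8 in Con. The counts come from RNA 3′ ends and do not say which part of the targeted allele they cover, so they do not check the labels. Cells were sorted into 13 classes named from marker genes, with all 44 collagen genes kept out of the clustering and the naming, and 11 classes had at least 50 cells in each library. Intervals are exact 95% intervals and cover counting error only.

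Collagens are extracellular proteins built of 3 chains wound into a triple helix, and each gene encodes 1 kind of chain. Fibrillar collagens (types I, III, V and XI) form the tensile fibres of connective tissue, and in the central nervous system they lie mainly in the meninges and around larger vessels. Type IV forms the network of basement membranes, type VI forms beaded filaments beside them, and the fibril-associated collagens (FACITs, such as types IX, XII and XIV) bind to the surface of fibrils. Multiplexins (types XV and XVIII) sit in basement membrane zones, and transmembrane collagens (types XIII and XXIII) are anchored in the cell surface.

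By these groups, the 44 genes comprised 11 fibrillar chains, 6 basement membrane chains, 6 beaded filament chains, 9 FACITs, 4 transmembrane chains, 3 short-chain network chains, 2 multiplexins, 1 anchoring fibril chain and 2 others. In 29 of the 44 genes, at least 1 class held 100 UMIs or more over both libraries. The other 15 were under that limit in every class. Of these, Col2a1 had 32 UMIs in SMA and 68 in Con over all kept cells, Col7a1 had 32 and 99, Col4a4 40 and 35, and Col22a1 47 and 42. Col28a1 had 26 UMIs in SMA and 32 in Con, Col24a1 18 and 30, Col4a3 14 and 15, Col20a1 11 and 28, and Col25a1 8 and 16. Col19a1 had 5 and 8, Col6a5 4 and 8, Col6a6 1 and 8, Col6a4 1 and 2, Col17a1 1 and 2, and Col10a1 0 and 2. Col2a1, best known from cartilage, was at 8.46 CPM in SMA and 7.49 CPM in Con COP-like cells, against 0.491 and 0.207 CPM in erythroid-like cells.

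Several members are neighbours in the genome (GRCm38, GENCODE M21). Col4a1 (chr8:11198423-11312826, minus strand) and Col4a2 (chr8:11312805-11449287, plus strand) start head to head, as do Col4a5 (chrX:141475385-141689234, plus strand) and Col4a6 (chrX:141165403-141474076, minus strand). Col3a1 (chr1:45311538-45349706, plus strand) lies beside Col5a2 (chr1:45374321-45503282, minus strand). Col6a2 (chr10:76595762-76623630, minus strand) lies near Col6a1 (chr10:76708792-76726168, minus strand). Col1a1 (chr11:94936224-94953042, plus strand) and Col1a2 (chr6:4504814-4541544, plus strand), the chains of type I, are on different chromosomes.

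The sequence before the start site is given for 4 members whose levels the results turn on: Col3a1 and Col1a2, which were lower in SMA fibroblast-like cells in both readings of the Con cells, Col15a1, the most lowered once the Mfap5 or Pcolce2 cells were set aside, and Col5a3, whose difference rested on those cells. They are RefSeq windows of 250 bases on GRCm38.p6, 5′ to 3′ on the strand of the gene, without bases that GENCODE places in an exon. Capitals mark the motif CCAAT, the motif TATAAA and the motif GGGCGG, each searched on both strands, and none of the capitals of 1 motif overlap those of another. The windows are chr1:45311288-45311537 for Col3a1, chr6:4505370-4505492 for Col1a2, chr4:47207762-47208011 for Col15a1 and chr9:20815068-20815317 on the minus strand for Col5a3.
Col3a1: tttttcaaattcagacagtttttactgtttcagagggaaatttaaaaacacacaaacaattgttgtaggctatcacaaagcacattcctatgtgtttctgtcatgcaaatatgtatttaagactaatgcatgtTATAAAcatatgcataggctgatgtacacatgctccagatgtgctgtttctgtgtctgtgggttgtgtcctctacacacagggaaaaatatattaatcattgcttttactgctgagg
Col1a2: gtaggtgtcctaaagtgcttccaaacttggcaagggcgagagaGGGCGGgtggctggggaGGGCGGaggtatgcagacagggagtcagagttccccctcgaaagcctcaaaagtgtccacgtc
Col15a1: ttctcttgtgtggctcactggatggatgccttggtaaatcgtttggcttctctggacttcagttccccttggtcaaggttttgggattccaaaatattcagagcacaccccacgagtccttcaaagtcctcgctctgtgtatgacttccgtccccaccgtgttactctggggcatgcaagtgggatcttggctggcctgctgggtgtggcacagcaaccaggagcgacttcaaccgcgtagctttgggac
Col5a3: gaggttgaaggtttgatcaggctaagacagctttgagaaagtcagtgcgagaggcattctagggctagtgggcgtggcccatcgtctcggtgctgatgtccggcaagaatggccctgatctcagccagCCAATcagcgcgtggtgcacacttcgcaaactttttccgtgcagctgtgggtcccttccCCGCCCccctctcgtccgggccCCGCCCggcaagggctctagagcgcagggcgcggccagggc
The Col1a2 window lies inside the GENCODE span of the gene, downstream of a first exon that GENCODE also lists. Of these 4 windows, TATAAA was found in that of Col3a1 alone, while that of Col1a2, 123 bases long, held 2 copies of GGGCGG and that of Col15a1 held none of the 3 motifs. The Col5a3 window held 1 CCAAT and 2 GGGCGG. Over all 32851 windows of the table, 33.8% held CCAAT, 12.4% TATAAA and 32.7% GGGCGG. Windows were found for 35 of the 44 members (38 windows), of which 34.2% held CCAAT, 13.2% TATAAA and 57.9% GGGCGG. With the 50 bases after the start added, the RefSeq windows of Col4a1 and Col4a2 overlap by 78 bases. A match is a string of letters and not a site of binding.

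Fibroblast-like cells carried the most collagen RNA of the 11 classes. Of all UMIs in the class, collagen genes took 0.921% in SMA, 2.57% in Con and 2.04% in Con cells without a UMI of Mfap5 or Pcolce2. Mural-like cells (pericytes and smooth muscle of vessels) followed with 0.355% in SMA and 0.285% in Con, and Schwann-like cells (glia of peripheral nerve) with 0.342% and 0.331%. Committed oligodendrocyte precursor (COP)-like cells had 0.146% and 0.148%, and endothelial-like cells 0.108% and 0.103%. Oligodendrocyte precursor (OPC)-, oligodendrocyte-, astrocyte- and ependymal-like cells lay between 0.0473% and 0.0662%. Microglia-like cells had 0.00954% in SMA and 0.0117% in Con, and erythroid-like cells, which make little RNA other than globin, had 0.00518% and 0.00720%. The last pair is the nearest measure here of RNA that droplets pick up from other cells.

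**Figure D1:**
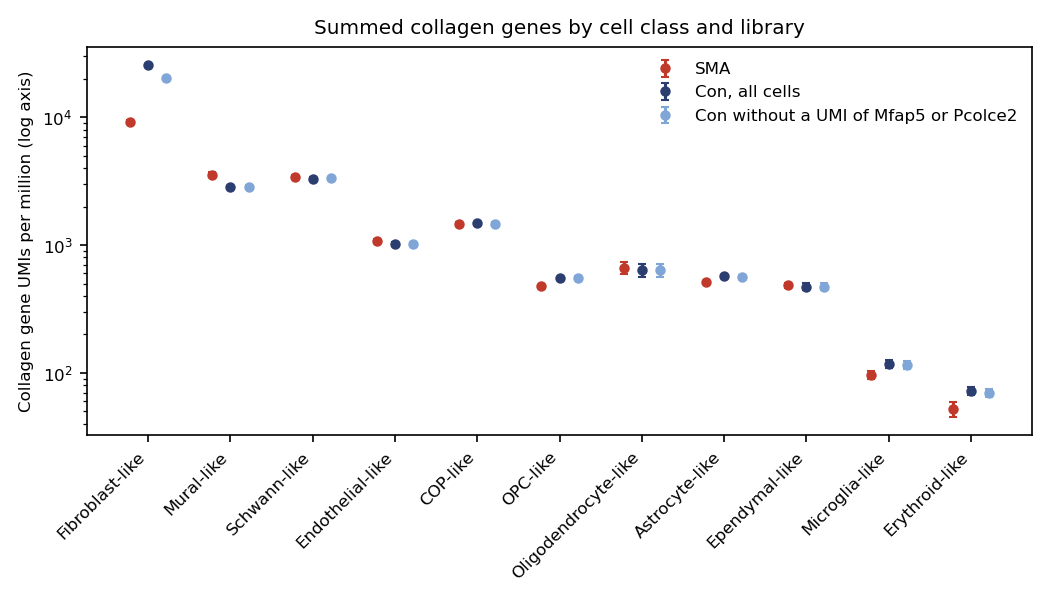
Summed level of the 44 collagen genes in CPM (log axis) in 11 cell classes for SMA, Con and Con without cells that have a UMI of Mfap5 or Pcolce2. Points are 1 library each and bars are exact 95% Poisson intervals, often smaller than the points. The fibroblast-like class is the highest and the one where the libraries stand farthest apart, at 9207 in SMA and 25668 in Con.

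Over all kept cells, collagen genes were at 669 CPM in SMA and 1878 CPM in Con, and at 1036 CPM in Con without the Mfap5 or Pcolce2 cells. Fibroblast-like cells were 0.928% of the SMA cells and held 17.6% of their collagen UMIs. They were 6.75% of the Con cells and held 64.4% of theirs. Without the Mfap5 or Pcolce2 cells, they were 1.55% of the Con cells and held 33.5%. The share of fibroblast-like cells and their collagen level both differed between the libraries, and their parts in the gap over all cells were not told apart. The differences that follow are within classes.

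The classes differed in which collagens they carried. Fibroblast-like cells had the highest levels of Col1a1, Col1a2, Col3a1 and the type VI chains in both libraries, mural-like cells of Col4a1 and Col4a2, and COP-like cells of Col9a3. For Col5a2, a chain of type V, the order differed between the libraries. Col5a2 was higher in Schwann-like (193 CPM) than in fibroblast-like cells (133 CPM) of SMA, and lower (177 against 656 CPM) in Con. Col5a1, of the same type, was higher in fibroblast-like than in Schwann-like cells of both libraries.

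**Figure D2:**
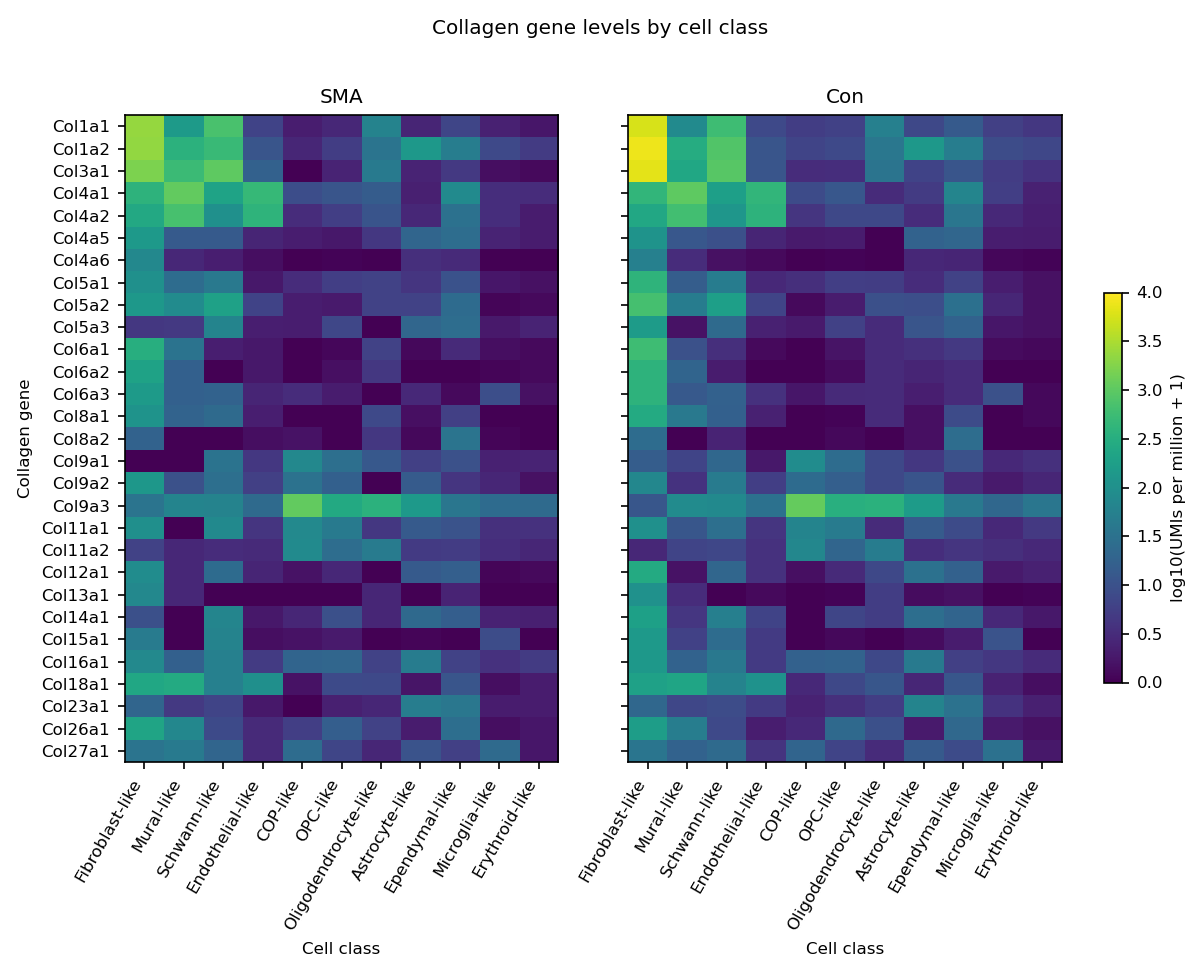
Level of the 29 collagen genes with 100 UMIs or more in at least 1 class (rows) in 11 cell classes (columns), as log10 of CPM plus 1, for the SMA library (left) and the Con library (right). Col1a1, Col1a2 and Col3a1 are brightest in fibroblast-like cells, Col4a1 in mural-like cells and Col9a3 in COP-like cells, in both libraries.

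Of type IX, Col9a3 was highest in the classes of the oligodendrocyte line and Col9a2 in fibroblast-like cells. Col9a3, a chain of this FACIT best known from cartilage, was at 1109 CPM in SMA COP-like cells (1966 UMIs) and at 1151 CPM in Con (4763 UMIs), a log2 ratio of SMA over Con of -0.05 (-0.13 to 0.02). It reached 376 CPM in SMA and 356 CPM in Con oligodendrocyte-like cells and 265 and 330 CPM in OPC-like cells, where the ratio was -0.32 (-0.39 to -0.25). At 1000 UMIs per cell, 64.5% of Con COP-like cells had a UMI of Col9a3 (60.3 to 68.7) against 2.79% of erythroid-like cells, whose median depths were 7988 and 9861 UMIs. Col9a3 made up 91.3% of type IX UMIs in SMA COP-like cells and 91.2% in Con, so Col9a1 and Col9a2 were minor partners there. Fibroblast-like cells of Con had the reverse order, with 73.7% of type IX UMIs from Col9a2 and 11.3% from Col9a3.

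COP-like cells also carried the type XI chains. Col11a1 was at 74.5 CPM in SMA and 62.1 CPM in Con, and Col11a2 at 81.8 and 71.0 CPM. Col9a1 was at 73.9 and 87.4 CPM. None of the 7 members measured in this class (100 UMIs or more over both libraries) passed a 2-fold difference, where 0.213% of all 6587 genes were 2-fold or more lower in SMA and 0.425% higher. The same held for the 14 members measured in OPC-like cells, where 0.111% of all genes were lower and 0.314% higher.

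Type IV was highest in mural-like cells and also high in endothelial- and fibroblast-like cells. The 6 chains of the basement membrane network summed to 1791 CPM in SMA and 1626 CPM in Con mural-like cells, to 891 and 809 CPM in endothelial-like cells, and to 854 and 847 CPM in fibroblast-like cells, or 1467 CPM in those of Con without Mfap5 or Pcolce2. In mural-like cells Col4a1 was at 1082 CPM in SMA and 1007 CPM in Con, with Col4a2 at 694 and 604 CPM. In endothelial-like cells Col4a1 was at 482 and 421 CPM and Col4a2 at 404 and 384 CPM. Col18a1, the source of endostatin, was at 276 and 226 CPM in mural-like and at 96.9 and 109 CPM in endothelial-like cells. The 2 chains did not come in the same proportion in both: Col4a1 was 54.4% (52.3 to 56.4) of their sum in SMA and 52.3% (50.5 to 54.1) in Con endothelial-like cells. In mural-like cells it was 60.9% (57.8 to 64.0) and 62.5% (60.7 to 64.3). The intervals of the 2 classes do not overlap in either library, whereas those of the 2 libraries overlap within each class.

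Astrocyte-like cells had an order of their own. Col9a3 led at 140 CPM in SMA and 158 CPM in Con, followed by Col1a2 at 133 CPM in each library, Col23a1, a transmembrane collagen, at 49.2 and 63.2 CPM, and Col16a1 at 47.2 and 44.2 CPM. Col1a2 came almost without its partner: Col1a1 was 1.21% (0.663 to 2.02) of type I UMIs in SMA and 4.55% (3.56 to 5.72) in Con. In erythroid-like cells Col1a2 was at 3.93 and 6.09 CPM. Col1a1 was at 1.63 and 6.33 CPM in astrocyte-like cells, beside 0.736 and 3.41 CPM in erythroid-like cells, so it lay near background and that background was also lower in SMA.

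Ependymal-like cells, which line the central canal, showed Col4a1 at 80.4 CPM in SMA and 65.7 CPM in Con. Col1a2 was at 49.1 and 48.5 CPM, Col23a1 at 38.1 and 31.3 CPM and Col8a2, a short-chain network collagen, at 33.9 and 25.6 CPM. In erythroid-like cells Col8a2 had 0 UMIs in Con, which allows up to 0.310 CPM (3 counts), and in fibroblast-like cells it was at 25.4 CPM in Con. No member of the 10 measured passed 2-fold in ependymal-like cells, where 0.0888% of all genes were lower and 0.266% higher. In microglia-like cells the highest members were Col27a1, a fibrillar collagen, at 23.4 and 30.6 CPM and Col9a3 at 24.3 and 20.6 CPM. The Col9a3 value there lay beside that of erythroid-like cells, at 23.3 and 36.5 CPM, and is read as background.

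The comparison of the genotypes was widest in fibroblast-like cells. This class held 63 SMA cells and 602 Con cells, and 152 further SMA cells were left out for a barcode that Con also lists. It was made of 2 clusters: cluster 24, led by Mfap4, Slc6a13 and A2m, held 62 of the SMA cells and 170 of the Con cells, and cluster 22, led by Timp1, Ptx3 and Serpinb2, held 1 SMA cell and 432 Con cells. The list of 10 fibroblast markers, which includes Dcn and Lum, had UMIs for all 10 genes in both libraries, with a summed level of 6053 CPM in SMA, 7475 CPM in Con and 8847 CPM in Con cells without a UMI of Mfap5 or Pcolce2. Other lists moved as well: 5 tenocyte markers summed to 335, 153 and 46.4 CPM, with Tnmd, Scx and Mkx at 0 in SMA. Likewise 10 astrocyte markers summed to 1660, 731 and 1313 CPM, 10 endothelial markers to 188, 922 and 131 CPM, 8 Schwann markers to 29.1, 173 and 20.5 CPM, 6 skeletal muscle markers to 53.1, 6.44 and 4.31 CPM, 10 mural markers to 2476, 2911 and 2553 CPM, and 7 erythroid markers to 453, 19707 and 33336 CPM. Of the skeletal muscle markers only Tnnt3 had UMIs in SMA (31), with Acta1, Myh3, Mylpf, Tnnc2 and Ckm at 0. Markers of chondrocytes and of osteoblasts were at 15.1 CPM or less in each. Their part in the collagen values was not tested. A UMI of Mfap5 or Pcolce2 was found in 478 of the 602 Con cells, of which 419 were in cluster 22, and in 28.6% of the SMA cells.

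The clusters differed in measures of the droplets. Among Con cells with 5000 UMIs or more, 2.86% of 70 cells in cluster 22 had a barcode that SMA also lists, against 100% of 151 cells in cluster 24. Outside the fibroblast-like and erythroid-like classes the share was 99.9% of 4771 cells. The median mitochondrial share was 2.09% in cluster 22, 6.30% in Con cells of cluster 24 and 6.77% in SMA cells. Globin UMIs were at 452 CPM in SMA fibroblast-like cells and at 33280 CPM in Con cells without Mfap5 or Pcolce2. The part of these differences in the collagen values was not tested, so each value below is given against all Con cells first and then against the 124 Con cells without a UMI of Mfap5 or Pcolce2, of which 111 were in cluster 24.

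In fibroblast-like cells, collagen genes were lower in SMA as a sum. The fibrillar chains had a log2 ratio of -1.73 against all Con cells and of -1.24 against those without Mfap5 or Pcolce2, where the transmembrane chains were also at -1.24. The summed share of UMIs of all members had a log2 ratio of -1.48 (-1.52 to -1.44), and of -1.15 (-1.19 to -1.10) against the Con cells without Mfap5 or Pcolce2. When such cells were also left out of SMA, which left 45 SMA cells, the ratio was -1.43, and within cluster 24 alone, a reading chosen after seeing the data, it was -1.21. Of 24 members measured, 11 were 2-fold or more lower in SMA and 0 higher, where 12.6% of all 4074 genes measured were lower and 4.69% higher. The limit of 100 UMIs is on the sum of both libraries and Con held 2797042 UMIs of this class against 584346 in SMA, so genes high in Con passed it more readily. Col5a3 (2 UMIs in SMA and 430 in Con) and Col14a1 (5 and 515) passed it through Con alone. Against the Con cells without Mfap5 or Pcolce2, 9 of 21 were lower and 0 higher, where 4.92% of 2114 genes were lower and 3.31% higher. The median log2 ratio of the members was -0.90 in the first reading and -0.93 in the second, beside medians of -0.02 for all genes in both. With the 152 SMA cells whose barcode Con also lists kept, the ratio of the share was -1.06 and 8 of the 11 members stayed 2-fold lower, while Col1a1 (-0.94), Col6a3 (-0.87) and Col15a1 (-0.74) did not.

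Cell by cell, the collagen share in cluster 24 ran from 0.123% to 2.91% with a median of 0.923% in SMA, and from 0.437% to 7.59% with a median of 1.90% in Con. The lower quartile of the Con cells, 1.35%, lay above the upper quartile of the SMA cells, 1.17%, though the ranges overlapped. Con cells of cluster 22 had a median of 2.84%. At 1000 UMIs per cell, a SMA fibroblast-like cell had UMIs of 4.95 different collagen genes on average, against 6.58 in Con and 6.83 in Con without the Mfap5 or Pcolce2 cells.

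**Figure D3:**
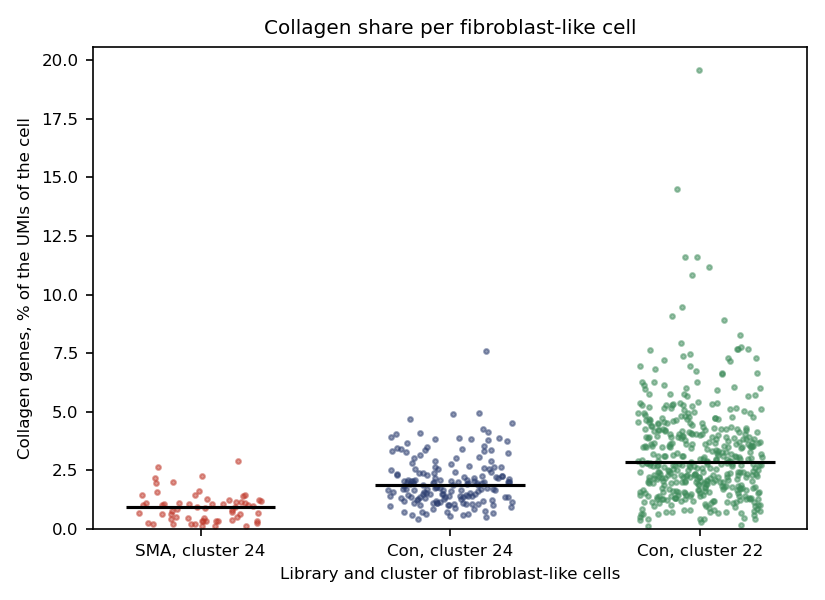
Share of the UMIs of each fibroblast-like cell that came from collagen genes (vertical axis, percent) for SMA cells of cluster 24, Con cells of cluster 24 and Con cells of cluster 22. Each point is 1 cell, cells of a library are not replicates, and lines are medians, at 0.923%, 1.90% and 2.84%.

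Type I and type III, the main fibrillar collagens, were lower in SMA in both readings. Col1a2 was at 2235 CPM in SMA, 7896 CPM in Con and 6199 CPM in Con without Mfap5 or Pcolce2, with log2 ratios of -1.82 (-1.90 to -1.74) and -1.47 (-1.56 to -1.38). Col3a1 was at 1641, 6911 and 3818 CPM, with ratios of -2.07 and -1.22. Col1a1 was at 2348, 5671 and 4859 CPM, with ratios of -1.27 and -1.05. Nearly all cells had the transcripts: a UMI of Col1a1 was found in 62 of 63 SMA cells and in 592 of 602 Con cells, at median depths of 8577 and 3481 UMIs. No single cell held more than 9.49% of the UMIs of these 3 genes in SMA.

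Type V, which joins type I in mixed fibrils, showed a split. Col5a2 was at 133 CPM in SMA, 656 CPM in Con and 318 CPM in Con without the Mfap5 or Pcolce2 cells, with log2 ratios of -2.30 and -1.25. Col5a1 was at 99.3, 396 and 195 CPM, with ratios of -1.997 and -0.98 (-1.43 to -0.54), the second just short of 2-fold. Col5a3 was at 3.42 CPM in SMA (2 UMIs) and 154 CPM in Con (430 UMIs), a ratio of -5.49, but 428 of these 430 UMIs came from cluster 22. Con cells without Mfap5 or Pcolce2 held 8 UMIs of it, too few to compare, and within cluster 24 there were 1 UMI in SMA and 2 in Con.

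The ratios of Col14a1 and Col12a1, of the FACITs, and of Col8a1 also changed when the Mfap5 or Pcolce2 cells of Con were set aside. Col14a1, which binds to fibrils of type I, was at 8.56 CPM in SMA (5 UMIs) and 184 CPM in Con (515 UMIs), a log2 ratio of -4.43, and 501 of the Con UMIs were in cluster 22. Against the Con cells without Mfap5 or Pcolce2, which held 5 UMIs, its ratio turned to 0.67 (-1.45 to 2.79). Col12a1 was at 87.3, 282 and 108 CPM, with ratios of -1.69 and -0.31 (-0.82 to 0.20), and 1 cell held 35.3% of its 51 SMA UMIs. Col8a1, a short-chain network collagen, was at 111, 280 and 133 CPM, with ratios of -1.33 and -0.25. Col12a1 and Col8a1 were thus no longer 2-fold lower once the Mfap5 or Pcolce2 cells of Con were set aside. Col14a1 and Col5a3 had too few UMIs there to compare. That reading kept such cells in SMA, where they were 28.6% of the class. With them left out of both libraries, which left 45 SMA cells, 10 of the 11 members stayed 2-fold lower and 0 reversed. Any call of Col14a1 or Col5a3 in that setting also rests on few UMIs.

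Col6a1, Col15a1 and Col13a1 went the other way, with a wider difference once the Mfap5 or Pcolce2 cells of Con were set aside. Col6a1 was at 318 CPM in SMA, 565 CPM in Con and 716 CPM in Con without Mfap5 or Pcolce2, with log2 ratios of -0.83 and -1.17 (-1.41 to -0.93). The other measured chains of type VI moved little: Col6a2 had ratios of -0.97 and -1.06, and Col6a3 of -1.34 and -1.31. Col15a1, a multiplexin, was at 44.5, 145 and 229 CPM, with ratios of -1.70 (-2.33 to -1.13) and -2.36 (-3.01 to -1.77). A UMI of Col15a1 was found in 14 of 63 SMA cells and in 56.5% of the Con cells without Mfap5 or Pcolce2. Col13a1, a transmembrane collagen, was at 73.6, 105 and 175 CPM, with ratios of -0.51 and -1.25 (-1.77 to -0.75).

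The network chains of type IV changed sides of 0 or came close to it. Col4a1 was at 385 CPM in SMA, 424 CPM in Con and 715 CPM in Con without the Mfap5 or Pcolce2 cells, with log2 ratios of -0.14 (-0.35 to 0.07) and -0.89 (-1.12 to -0.67). Col4a2 had ratios of 0.02 and -0.77, Col4a5 of 0.28 and -0.61, and Col4a6 of 0.42 and -0.48. Col18a1, at 238, 192 and 394 CPM, went from 0.31 to -0.73, and Col26a1 from 0.39 to -0.76. None of these passed 2-fold in either reading. Col9a2 was at 130, 70.1 and 127 CPM, with ratios of 0.89 (0.49 to 1.28) and 0.03, and was the 1 member of 21 above 0 in the second reading. The remaining measured members were Col16a1, with ratios of -0.82 and -0.93, Col11a1, with -0.05 and -0.19, and Col27a1, with -0.004 in the first reading and under 100 UMIs in the second.

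**Figure D4:**
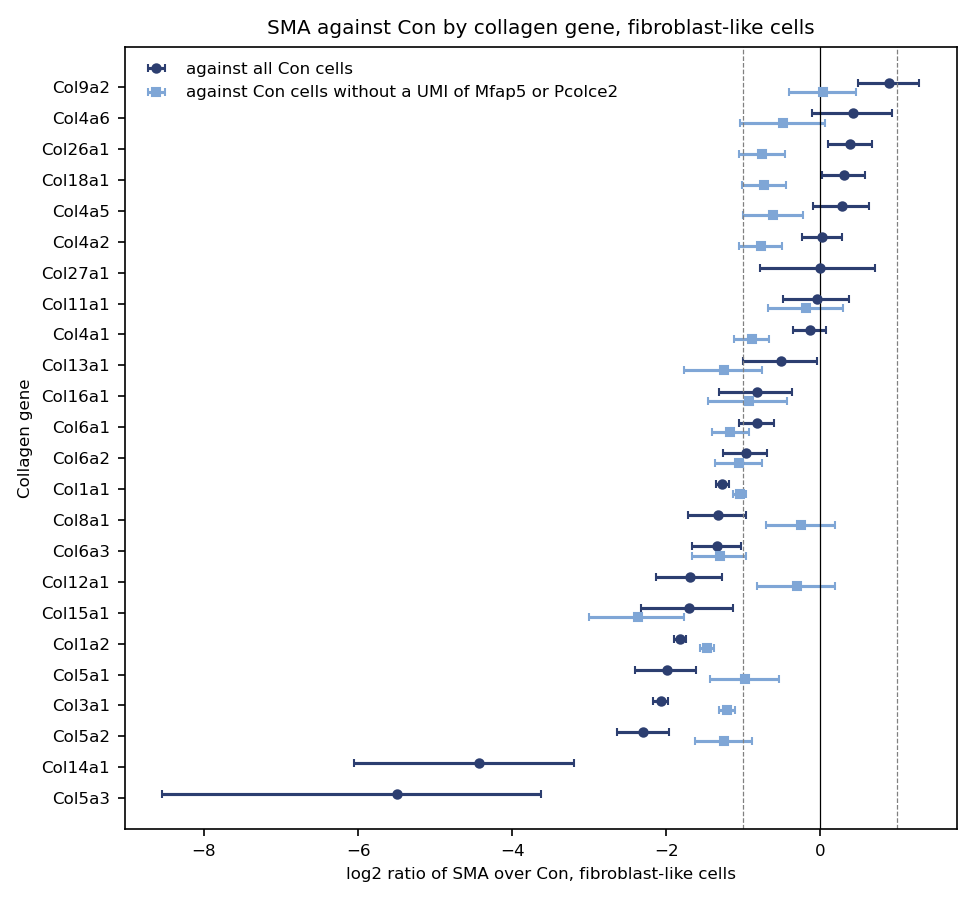
Log2 ratio of SMA over Con (horizontal axis) for the 24 collagen genes with 100 UMIs or more in fibroblast-like cells, against all Con cells (circles) and against Con cells without a UMI of Mfap5 or Pcolce2 (squares, 21 genes). Bars are exact 95% intervals for counting error in 1 library per genotype, and dashed lines mark 2-fold. Col14a1 and Col5a3 lie farthest left among the circles and have no square, Col15a1 has the lowest square, and the type IV chains move from near 0 to below it.

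The collagens of the Con cells themselves differed with Mfap5 and Pcolce2. With 478 cells that have a UMI of Mfap5 or Pcolce2 against 124 without, 7 of 23 collagen genes measured were 2-fold or more higher in the cells with one and 9 were 2-fold or more lower, where 12.1% of all 3516 genes were higher and 7.11% lower. Those higher were Col14a1 (log2 ratio 5.66), Col5a3 (4.71), Col12a1 (1.77), Col8a1 (1.41), Col5a2 (1.37), Col5a1 (1.34) and Col3a1 (1.15). Those lower were Col26a1 (-2.47), Col18a1 (-2.09), Col4a6 (-1.72), Col4a5 (-1.67), Col9a2 (-1.61), Col4a2 (-1.44), Col4a1 (-1.35), Col13a1 (-1.32) and Col15a1 (-1.15). Cluster 22 of Con had 0 UMIs of Col26a1, Col9a2, Col13a1 and Col4a6, where cluster 24 had 468, 196, 293 and 150; a count of 0 allows up to 3. These are cells of 1 library and the median UMIs per cell were 3100 with and 7636 without, so the values are a description.

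Chain proportions within a type could be read without reference to the depth of a library. UMIs tag molecules, so chains were compared with no correction for length. Col1a1 was 51.2% (49.3 to 53.1) of type I UMIs in SMA fibroblast-like cells, against 41.8% (41.3 to 42.3) in Con and 43.9% (43.0 to 44.9) in Con without Mfap5 or Pcolce2. The same direction was seen in Schwann-like cells, with 57.3% (54.3 to 60.3) in SMA and 41.3% (39.4 to 43.2) in Con. In mural-like cells it was 28.3% (23.2 to 33.8) and 21.1% (18.1 to 24.3), with overlapping intervals. There 1 Con cell held 75.7% of the Con UMIs of Col1a1 and 1 SMA cell 23.8% of the SMA UMIs. The mural-like shares thus rest largely on single cells, which the intervals do not cover. The share was lower in SMA in astrocyte-like cells, as given above, and in ependymal-like cells, at 10.7% (6.95 to 15.5) and 20.5% (13.6 to 29.0), the latter on 24 UMIs of Col1a1 in each library and with overlapping intervals. For type VI in fibroblast-like cells, Col6a1, Col6a2 and Col6a3 made up 47.7%, 29.7% and 22.6% in SMA and 42.3%, 29.1% and 28.6% in Con. The intervals of Col6a3, 18.5 to 27.0 in SMA and 27.1 to 30.1 in Con, did not overlap, while those of the other chains did. In Con without Mfap5 or Pcolce2 the shares were 47.7%, 27.5% and 24.8%, with intervals that overlapped those of SMA for each chain.

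**Figure D5:**
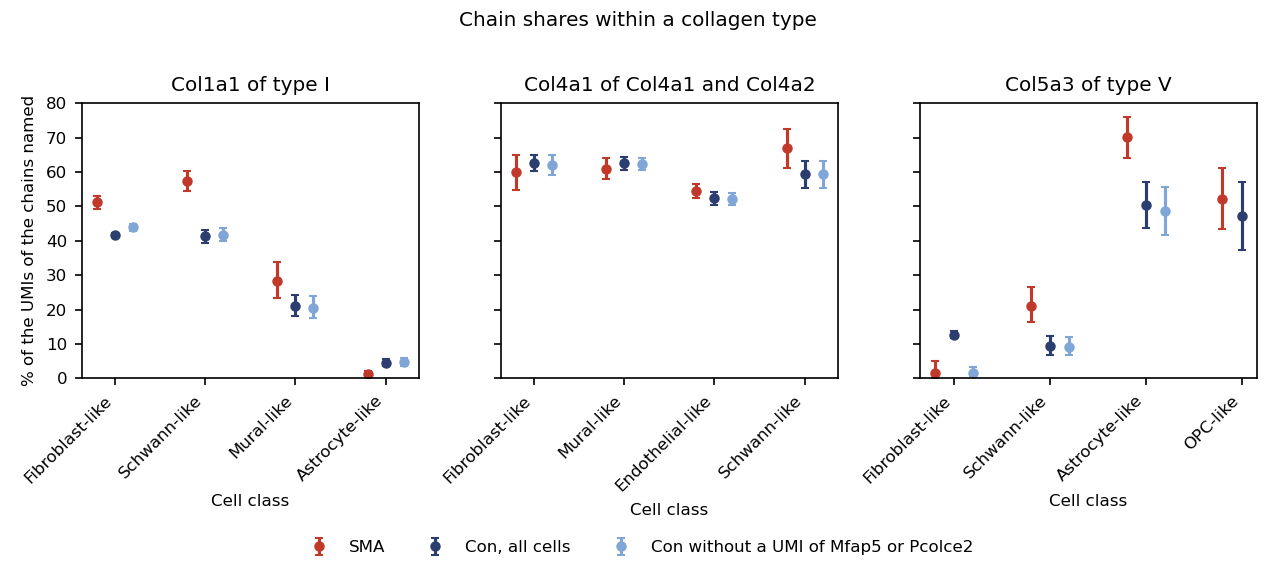
Share (percent) of Col1a1 in type I UMIs, of Col4a1 in the sum of Col4a1 and Col4a2, and of Col5a3 in type V UMIs, by cell class, for SMA, Con and Con without cells that have a UMI of Mfap5 or Pcolce2. Bars are exact 95% Clopper-Pearson intervals. In mural-like cells 1 Con cell held 75.7% of the Con UMIs of Col1a1. Col1a1 takes a larger part in SMA than in Con in fibroblast-like (51.2% against 41.8%) and Schwann-like cells (57.3% against 41.3%), and Col5a3 a larger part in SMA astrocyte-like cells (70.1% against 50.4%).

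In mural-like cells (94 SMA and 263 Con cells) the collagen share was higher in SMA, with a log2 ratio of 0.32 (0.25 to 0.40). The median cell did not share this direction, at 0.251% in SMA and 0.258% in Con, whereas the 95th percentile of cells was 0.926% and 0.565%, so the higher sum came from the cells richest in collagen. Of 9 members measured, 8 had a ratio above 0, 1 was 2-fold or more higher and 0 were lower, where 1.08% of all 3422 genes were higher and 1.61% lower. That member was Col3a1, at 524 CPM in SMA and 245 CPM in Con, a ratio of 1.10 (0.88 to 1.32). It was below 2-fold with SMA barcodes listed in Con kept (0.77), with each cell weighted equally (0.82) and with a mitochondrial limit of 20% (0.83). Col3a1 was found in 54 of 94 SMA cells and 158 of 263 Con cells, and the top SMA cell held 11.8% of its UMIs. Col1a1 had a ratio of 0.88 and Col5a2 of 0.85, but 1 Con cell held 75.7% of the Con UMIs of Col1a1. The summed fibroblast markers were at 172 CPM in SMA and 188 CPM in Con mural-like cells, with Lum, Dpt and Aldh1a2 at 0 in SMA. The type IV chains, Col4a1 at 0.10 (-0.03 to 0.24) and Col4a2 at 0.20 (0.03 to 0.37), differed little.

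Endothelial-like cells (336 SMA and 456 Con cells) had a collagen share with a log2 ratio of 0.08 (0.00 to 0.15). Of 4 members measured, 0 passed 2-fold in either direction, where 0.696% of all 6319 genes were lower and 0.902% higher. The ratios were 0.19 (0.09 to 0.30) for Col4a1, 0.07 (-0.04 to 0.19) for Col4a2, -0.17 (-0.40 to 0.06) for Col18a1 and -0.38 (-0.85 to 0.09) for Col9a3. The level of Col9a3, 23.5 CPM in SMA and 30.6 CPM in Con, lay beside that of erythroid-like cells given above and is read as background. A 2-fold difference of these 4 genes lies outside their intervals, which cover counting error only.

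Schwann-like cells (91 SMA and 229 Con cells) had the fibrillar collagens of the endoneurium at levels second to those of fibroblast-like cells, with Col3a1 at 1020 CPM in SMA and 904 CPM in Con, Col1a1 at 701 and 571 CPM and Col1a2 at 522 and 811 CPM. The summed share had a log2 ratio of 0.05 (-0.01 to 0.11), with the median cell at 0.311% in SMA and 0.240% in Con, while single members went in both directions. Of 15 measured, 3 were 2-fold or more higher in SMA and 0 lower, where 1.41% of all 3550 genes were higher and 0.93% lower. Against Con cells without Mfap5 or Pcolce2, 13 were measured, 1 was higher (Col11a1) and 0 lower, where 1.44% of all 3477 genes were higher and 0.892% lower; Col5a3 and Col15a1 each had 1 UMI too few to be measured there, with ratios of 1.44 and 1.32. Col11a1 was at 79.5 CPM in SMA and 27.6 CPM in Con, a ratio of 1.53 (1.00 to 2.06). Col5a3, which Schwann cells are known to secrete, was at 62.5 and 23.1 CPM, a ratio of 1.44 (0.85 to 2.03), and Col15a1 at 60.2 and 25.1 CPM, a ratio of 1.26 (0.68 to 1.85). Their cells were spread: Col5a3 was found in 41 of 91 SMA cells and 35 of 229 Con cells, and Col15a1 in 35 and 43. For Col11a1 these were 33 and 38 cells, and 1 SMA cell held 20.0% of its UMIs. Col1a2 was lower in SMA at -0.64 (-0.79 to -0.49), and Col1a1 higher at 0.30 (0.15 to 0.44). The fibroblast markers were at 222 CPM in SMA and 162 CPM in Con, with Dcn, Dpt, Slc6a13, Aldh1a2 and Gjb2 at 0 in SMA.

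Astrocyte-like cells (1360 SMA and 1675 Con cells) had a collagen share with a log2 ratio of -0.15 (-0.21 to -0.09). Of 12 members measured, 1 was 2-fold or more lower in SMA and 0 higher, where 0.441% of all 10214 genes were lower and the same share higher. Against Con cells without Mfap5 or Pcolce2, 1 was lower and 1 higher, where 0.413% of all 10160 genes were lower and 0.443% higher. Col12a1, a FACIT, was at 12.4 CPM in SMA and 30.5 CPM in Con, a ratio of -1.29 (-1.62 to -0.97), which was -0.91 with the SMA barcodes listed in Con kept. Col5a3 was at 19.7 and 10.4 CPM, a ratio of 0.92 (0.57 to 1.28) short of 2-fold, but just past it, at 1.00 (0.64 to 1.37), against the Con cells without Mfap5 or Pcolce2 (9.82 CPM). It took 70.1% (63.9 to 75.8) of type V UMIs in SMA and 50.4% (43.7 to 57.2) in Con. Col1a2 had a ratio of 0.00 (-0.11 to 0.11), so its lower level in fibroblast-like cells was not seen here.

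The proteins that make and receive collagen were read from a list of 47 genes, which holds prolyl and lysyl hydroxylases, chaperones, propeptide proteases, cross-linking enzymes and receptors. Unlike the collagens, these genes had not been kept out of the clustering, and Lox is among the 10 leading genes of cluster 22. In fibroblast-like cells, 18 of 32 measured were 2-fold or more lower in SMA and 0 higher, with a median log2 ratio of -1.14, against the 12.6% and 4.69% given above. P4ha2 and P4ha3, prolyl hydroxylase subunits, and Loxl3, a lysyl oxidase, passed the limit of 100 UMIs through Con, with 2, 1 and 3 UMIs in SMA against 415, 166 and 153 in Con, for ratios of -5.44 (-8.49 to -3.58), -5.12 (-10.4 to -2.62) and -3.41 (-5.71 to -1.84). Lox, with 40 and 1221 UMIs, had a ratio of -2.67. Against Con cells without Mfap5 or Pcolce2, P4ha2, P4ha3 and Loxl3 had under 100 UMIs over both libraries, and Lox had a ratio of -0.68.

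In that second reading 5 of 18 list genes were 2-fold or more lower and 0 higher, with a median of -0.87, against the 4.92% and 3.31% of all genes in that reading. They were P3h1 (-1.66), a prolyl 3-hydroxylase, Bmp1 (-1.24), the protease that removes the carboxyl propeptide, Creb3l1 (-1.06), a transcription factor of secretory cells, Serpinh1 (-1.04), the collagen chaperone Hsp47, and Loxl1 (-1.01). Sparc, a collagen-binding matrix protein, was at 6015 CPM in SMA, 14433 CPM in Con and 9235 CPM in Con without the Mfap5 or Pcolce2 cells, with ratios of -1.26 and -0.62. Ppib, a proline isomerase of the endoplasmic reticulum, was closer to level, with ratios of -0.23 and -0.31. In Schwann-like cells P3h4 (-1.01) was the 1 list gene of 15 that passed 2-fold, where 0.93% of all genes were lower. In mural-, endothelial- and astrocyte-like cells none of 13, 17 and 31 did, where 1.61%, 0.696% and 0.441% of all genes were lower and 1.08%, 0.902% and 0.441% higher. Below 0 in these classes were 10, 13 and 25 of the list genes, and 3, 4 and 6 were above. The medians were -0.21, -0.28 and -0.31, beside -0.02, 0.0008 and -0.07 for all genes.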

How the data were processed

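Single-cell RNA-seq counts were analysed from whole spinal cord, in 1 library labelled SMA and 1 labelled Con. The authors deposited, per cell barcode and gene, counts of UMIs that Cell Ranger had made from 10x Genomics 3′ libraries. The file headers give Cell Ranger 4.0.0 where the study's methods give another release, and the submitters' processing notes name mm10 and Seurat 3.2.2. The counts had not been normalized for depth, and 0 columns of per-sample values were left unassigned.

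Cells with 200 to 4000 genes and under 10% mitochondrial UMIs were kept (13296 SMA and 8917 Con cells), after a cluster of 1339 Con cells with a median ribosomal-protein share over 30% had been left out. The 6509 kept SMA cells whose barcode Con also lists were then set aside. Clusters (2000 variable genes, 30 principal components, 20 neighbours, Louvain resolution 1, igraph 0.11.9, scanpy 1.11.5) were named from marker lists when at least 3 markers were detected. Unnamed stayed 3 clusters of low depth with no marker of their class among the 10 leading genes (medians 0.256 to 0.307 of their samples') and 1 with markers of another class, in all 379 SMA and 1115 Con cells. Collagen genes, Mfap5 and Pcolce2 had been kept out of this. A cluster also led by another class was left unnamed only where 2 or more markers of that class led it, a limit set after seeing the data so that cluster 22 counted as fibroblast-like. No doublet caller was run beyond the limit of 4000 genes. UMIs were summed per class and library and divided by all UMIs of the class (CPM).

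Ratios were taken where a gene had 100 UMIs or more over both libraries, with a gene at 0 entered at 3 counts, and a gene was counted as lower or higher at 2-fold or more. Intervals were exact (Poisson, Clopper-Pearson and conditional binomial, 95%, scipy 1.17.1). The functions were tested on simulated counts. Named in a class were up to 6 members of highest level and up to 10 of largest 2-fold difference with an interval off 0, with every other measured fibroblast-like member given too, and up to 4 genes of the list of 47. Loxl1, Sparc, Ppib and members named beyond these limits were chosen after their values were seen. The members and lists were chosen with earlier results of these data known. Promoter windows came from RefSeq on GRCm38.p6 and positions from GENCODE M21.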

Additional observations from a re-analysis of the deposited data

Results flagged for a closer look

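The summed collagen share was lower in SMA in fibroblast-like cells and higher in SMA in mural-like cells. The log2 ratio of SMA over Con was -1.48 in fibroblast-like cells and 0.32 in mural-like cells, and neither interval reached 0. This opposite direction flagged the result. With 1 library per genotype the difference between the classes was not tested. The median mural-like cell, at 0.251% in SMA and 0.258% in Con, did not show the higher share of the sum.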

How the results depend on the processing

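The collagen share in fibroblast-like cells was lower in SMA under every setting tried, with log2 ratios of -1.15 without the Con cells that have a UMI of Mfap5 or Pcolce2, -1.43 without such cells in both libraries, -1.06 with SMA barcodes listed in Con kept, -1.18 in deep cells (5000 UMIs or more, for Con with a barcode that SMA also lists), -1.65 with each cell weighted equally and -1.21 in cluster 24 alone, an alternative added after seeing the data. The median over members moved to -0.54 with the SMA barcodes kept. No member was 2-fold higher, except 5 with each cell weighted equally (Col9a2, Col4a6, Col4a5, Col26a1 and Col18a1) and 1 with a limit of 50 UMIs (Col9a3). The mural-like share was 0.17 with the SMA barcodes kept and 0.24 with equal weights, the endothelial-like share reversed to -0.026 and -0.015 under the same settings, and the Schwann-like share was -0.098 with equal weights. Among single genes, Col14a1 reversed to 0.67 without the Mfap5 or Pcolce2 cells of Con, and Col5a3 to 0.31 in deep cells and 0.32 in cluster 24, on counts of 5 or fewer in each library. The cause of these shifts was not tested. Centring on the median gene, resolution 2, the 20% mitochondrial limit and the limit of 300 UMIs moved no class share beyond its interval and no count of fibroblast-like members by over 1.5 times. The number of fibroblast-like members 2-fold lower ran from 8 to 13 over all settings, and of the 11 counted in the report at least 6 stayed so under each (7 with Col5a3 counted on 2 and 8 UMIs where the Con cells with Mfap5 or Pcolce2 were left out). No paired analysis was possible because each genotype has 1 library, and for the same reason no library could be left out. Members under 100 UMIs in a class could not be compared at this depth.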
